A study of Mus musculus with 12 samples.

Results

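The 46 genes described here are interferon-stimulated genes, the targets that cells switch on after they bind an interferon. They were taken as the genes of the deposited table whose symbol is on a given list of 46 names, and all 46 were found among the 36400 genes of the file. Of these, 44 had a mean of at least 0.1 FPKM (fragments per kilobase of gene model, scaled to sequencing depth) over the 12 libraries and could be tested, out of 21890 such genes. The list was read by role: 11 type I effectors (the Ifit, Oas and Mx families), 10 GTPases known for their induction by interferon-gamma, 3 genes of antigen processing, 5 sensors of foreign nucleic acid, 3 transcription factors and 14 further targets.

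RNA from the dorsal skin of 12 female BALB/c mice, bought at 6 weeks of age, was sequenced in 4 groups of 3. Control mice received the vehicle alone, acetone and olive oil. The other groups received 2,4-dinitrochlorobenzene (DNCB), a hapten that sensitizes skin and then inflames it, on the schedule of a model of atopic dermatitis: 1% DNCB in 4 applications from day 0 to day 9, then 0.5% DNCB in 6 applications from day 12 to day 27. Mice of the DNCB group had no further treatment. The scMSC and scivMSC groups also received human umbilical cord mesenchymal stem cells, 2000000 cells in each of 4 injections between day 13 and day 25, given as 100 µL under the skin (scMSC) or as 50 µL under the skin and 50 µL into a vein (scivMSC). Skin was collected on day 30. The injected cells are human and the table holds mouse genes. Whether reads from the injected cells enter these values was not tested.

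Total estimated counts ran from 63877153 in control 3 to 75134001 in DNCB 2. Below, levels are the deposited FPKM in the order of replicates 1, 2 and 3, and a log2 fold change is given with its standard error over 3 libraries a group. A gene passed when the adjusted p of edgeR's quasi-likelihood test, corrected over 21890 genes by the method of Benjamini and Hochberg, was under 0.05. The p-values measure the spread between these mice. An exact permutation test of 3 libraries against 3 cannot give a p below 0.10, so none was used for single genes. Of all genes tested, edgeR called 12.4% lower and 12.9% higher in DNCB against control. The shares were 5.77% and 6.95% in scMSC against DNCB, and 3.60% and 4.56% in scivMSC against DNCB. Counts at an unadjusted p under 0.05 are given without the share of all genes at that threshold. They cannot be set against the shares of adjusted calls.

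Interferons act in families. Type I interferons bind the receptor pair Ifnar1 and Ifnar2 and act through Jak1, Tyk2 and a complex that holds Stat2 and Irf9 and turns on antiviral effectors, while interferon-gamma, made mostly by T cells and NK cells, binds Ifngr1 and Ifngr2 and turns on Irf1, immunity-related GTPases and the machinery of antigen processing. Many targets answer to both, and keratinocytes, fibroblasts and immune cells of the skin all respond. Keratinocytes carry a low tonic interferon response even in healthy skin.

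The roles of the members differ. The type I effectors are Ifit1, Ifit2 and Ifit3, the synthetases Oas1a, Oas1g, Oas2 and Oas3 with their relatives Oasl1 and Oasl2, and Mx1 and Mx2. The GTPases are the guanylate-binding proteins Gbp2 to Gbp7 and the immunity-related GTPases Iigp1, Igtp, Irgm1 and Irgm2. The antigen processing genes are Tap1, Psmb8 and Psmb9. The sensors are the RNA helicases Ifih1, Ddx58 and Dhx58, the nucleic acid binding protein Zbp1 and the RNA-activated kinase Eif2ak2, and the transcription factors are Irf1, Irf7 and Irf9. The further targets are Isg15 and its protease Usp18, the membrane tether Bst2, the antiviral enzymes Rsad2 and Cmpk2, the restriction factors Trim30a and Samd9l, the apoptosis factor Xaf1, the ADP-ribosyltransferase Parp14, the receptor transporter Rtp4, and Ifi27, Ifi27l2a, Ifi35 and Ifi44.

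The members covered a wide range of levels. Ifi27l2a, a small interferon-induced protein, was the most abundant member in control skin at 103, 105 and 219 FPKM. By group mean Ifi27 of the same family followed, at 47.2, 53.6 and 48.5 FPKM, although Bst2 was above it in control 3 at 75.1 FPKM. At the low end, the 2'-5' oligoadenylate synthetases Oas1a and Oas1g did not reach the level needed for testing and had at most 19 and 23 estimated counts in any library. Of the estimated counts from 1 to 18, 38.9% to 41.2% in a library were multiples of 4. If 4 stand for 1 fragment, which the sources used here do not say, 12 counts stand for 3 fragments. No change in Oas1a or Oas1g was detectable at this depth.

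A pair of libraries stood apart from their groups in these genes, which bears on every comparison. Control 3 was the highest of all 12 libraries in 32 of 44 members, against 1634 of 21890 genes, and the highest of the control libraries in 38. In the type I effectors it was the highest control library for 9 of 9 tested genes, with a summed level of 48.8 FPKM against 9.52 in control 1 and 14.2 in control 2. Its members lay a median of 0.93 log2 units above the mean of the other control libraries, against 0.071 for all genes tested. Likewise, scMSC 1 was the highest scMSC library in 44 of 44 members, by a median of 1.17 log2 units against 0.072 for all genes tested. In scivMSC skin, scivMSC 2 was highest in 32 members and scivMSC 3 lowest in 35. Libraries of the DNCB group were the most alike, with a median standard deviation of 0.20 on the log2 scale over the members, against 0.60 in control, 0.72 in scMSC and 0.45 in scivMSC skin.

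**Figure D1:**
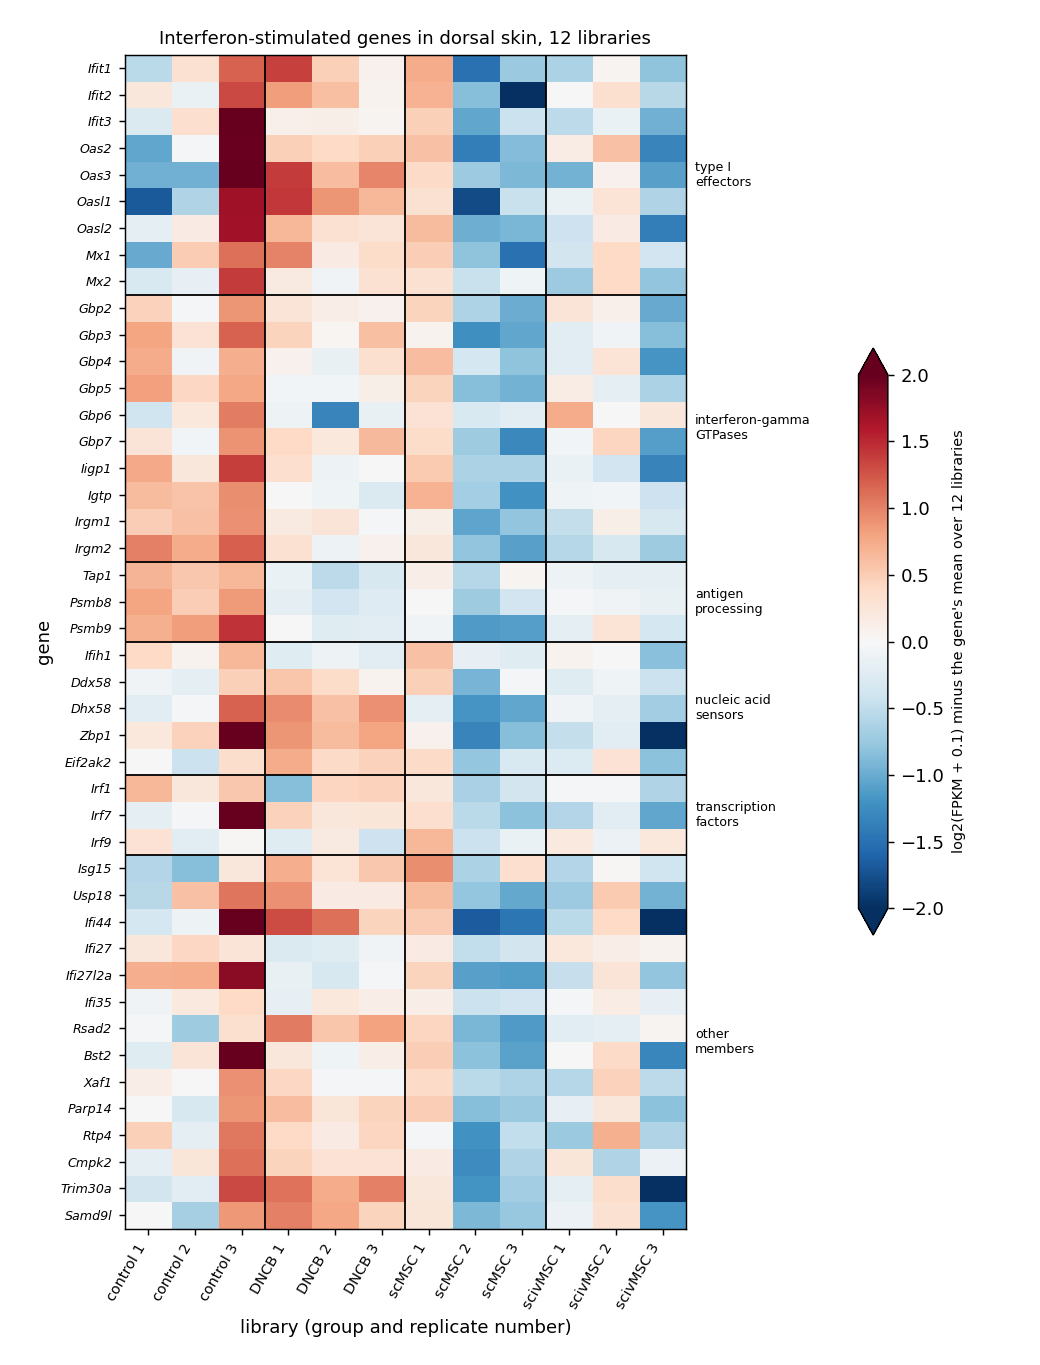
Each line is 1 of the 44 tested genes, grouped by role, and each column 1 of the 12 libraries; color gives log2(FPKM + 0.1) minus the gene's mean over the 12 libraries, with values beyond 2 or -2 drawn at the end of the scale. Control 3 was the highest library in 32 of the 44 genes, and scMSC 1 the highest scMSC library in 44.

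Markers of macrophages and monocytes followed the same libraries. The 7 markers summed to 137, 144 and 508 FPKM in control skin, 753, 771 and 644 in DNCB skin, 263, 117 and 118 in scMSC skin and 215, 294 and 38.6 in scivMSC skin. Control 3 and scMSC 1 were the highest of their groups in 7 of 7 of these markers, and scivMSC 3 the lowest of its group in 6. Lyz2, the lysozyme of macrophages and neutrophils, was the most abundant of them in every library, and no marker was at 0 in any library. This order was not particular to macrophages. The sums given below for fibroblasts, keratinocytes, T cells, NK cells and dendritic cells were also highest in control 3 and scMSC 1 within their groups. Those sums were lowest of their group in scivMSC 3. The sums of neutrophil, skeletal muscle, plasmacytoid and hair follicle markers did not keep this order. Whether macrophages or any other of these cells have a part in the high member levels of control 3 and scMSC 1 was not tested. In bulk skin, fewer cells of a type and less RNA per cell cannot be told apart.

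DNCB against control asks which of these genes differ between inflamed and vehicle-treated skin. In DNCB skin the antigen processing genes Tap1, Psmb8 and Psmb9 fell by more than 1 log2 unit each, and with them fell the GTPase Irgm2 and the related targets Ifi27 and Ifi27l2a. No member rose in the fit of all 12 libraries. The type I effectors had no member that passed in either direction. In all, 6 of 44 members were lower and 0 were higher, where 12.4% of all genes tested were lower and 12.9% were higher. By edgeR the share of members that fell was near that of all genes. DESeq2 called 11 members lower, where 16.1% of all genes it tested were, limma 6, where 9.96% were, and edgeR on only the 6 libraries compared 11, where 13.4% were. Beside the 0 higher from edgeR, 0 members were higher by DESeq2 and 0 by limma. An unadjusted p under 0.05 was found for 13 members, all of them lower. The share of all genes at that unadjusted threshold is not given here, so 13 cannot be set against it. The median log2 fold change of the 44 members was -0.51, against 0.022 for all genes tested. Scaling by library size alone moved the median of all genes to 0.20 and that of the members to -0.34.

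Tap1, which with Tap2 forms the pump that carries peptides into the endoplasmic reticulum for loading on class I molecules, had 9.55, 8.64 and 9.51 FPKM in control skin, 5.40, 4.08 and 4.74 in DNCB skin, 6.52, 3.99 and 6.17 in scMSC skin and 5.51, 5.16 and 5.18 in scivMSC skin. The 3 control libraries were the highest of the 12, and no DNCB library overlapped them. Tap1 was 2.21-fold lower in DNCB than in control skin (log2 fold change -1.15 ± 0.16, adjusted p 0.00105). Psmb8, a catalytic subunit of the immunoproteasome, which cleaves proteins into such peptides, had 9.77, 7.95 and 10.3 FPKM in control skin, 4.94, 4.29 and 4.67 in DNCB skin, 5.68, 3.38 and 4.28 in scMSC skin and 5.54, 5.32 and 5.08 in scivMSC skin. Again every control library was above every other library, and the DNCB libraries lay close together. Its log2 fold change was -1.19 ± 0.16, adjusted p 0.000954. Psmb9, another catalytic subunit of the immunoproteasome, had 4.84, 5.30 and 8.15 FPKM in control skin, 2.93, 2.45 and 2.49 in DNCB skin, 2.76, 1.28 and 1.31 in scMSC skin and 2.57, 3.54 and 2.28 in scivMSC skin. Control 3 was the highest, yet controls 1 and 2 also lay above all 9 other libraries. The change was -1.39 ± 0.30, adjusted p 0.00663. These 3 genes passed with and without control 3, and their median change was -1.19 with it and -1.20 without it.

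The GTPases known for induction by interferon-gamma guard cells against microbes that live inside vacuoles, the Gbp proteins by coating the vacuole and the Irgm proteins by regulating the other immunity-related GTPases. Of the 10, 1 passed by edgeR (Irgm2), where 12.4% of all genes were lower, and all 10 had a log2 fold change below 0, with a median of -0.85. The count was 5 by DESeq2, 1 by limma, 4 without scMSC 1 and 0 without control 3, where 16.1%, 9.96%, 12.2% and 12.3% of all genes were lower. Gbp7 came to 0.00069 when scaled by library size alone. Irgm2 had 5.19, 4.32 and 5.96 FPKM in control skin, 3.17, 2.37 and 2.72 in DNCB skin, 3.01, 1.43 and 1.14 in scMSC skin and 1.69, 2.03 and 1.52 in scivMSC skin. Every control library was above every DNCB library, and the scMSC and scivMSC libraries other than scMSC 1 were below all DNCB libraries. Its change in DNCB skin was -1.09 ± 0.30, adjusted p 0.0223, a call lost in 4 of the 12 fits that each left out 1 library: without control 1 (adjusted p 0.0551), control 3 (0.0548), DNCB 2 (0.0787) or DNCB 3 (0.0679). It was also lost when scaled by library size alone (-0.91, adjusted p 0.0563).

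Among the GTPases that did not pass by edgeR, Irgm1 had 3.62, 3.87 and 4.87 FPKM in control skin, 2.90, 3.06 and 2.50 in DNCB skin, 2.78, 1.18 and 1.44 in scMSC skin and 1.79, 2.75 and 2.01 in scivMSC skin. The DNCB libraries were below the controls, and of the treated libraries scMSC 1 and scivMSC 2 alone reached DNCB levels. Its change was -0.72 ± 0.27, adjusted p 0.0763. Iigp1, an immunity-related GTPase that attacks the vacuole membrane, had 2.82, 1.92 and 4.40 FPKM in control skin, 2.07, 1.499 and 1.61 in DNCB skin, 2.37, 1.01 and 1.01 in scMSC skin and 1.47, 1.21 and 0.579 in scivMSC skin. Control 2 lay just under DNCB 1, so the groups overlapped, and the change was -0.99 ± 0.40, adjusted p 0.0999. Gbp5, a guanylate-binding protein tied to inflammasome activation, had 0.891, 0.648 and 0.856 FPKM in control skin, 0.441, 0.438 and 0.507 in DNCB skin, 0.661, 0.211 and 0.189 in scMSC skin and 0.519, 0.387 and 0.259 in scivMSC skin. No DNCB library reached the lowest control, but the change, -0.97 ± 0.43, adjusted p 0.129, did not pass with all 12 libraries. DESeq2 called Irgm1 and Iigp1 lower, and edgeR without scMSC 1 called Irgm1 (adjusted p 0.0161) and Gbp5 (0.0268). Gbp2, which coats pathogen vacuoles, had 6.07, 4.31 and 8.13 FPKM in control skin, 5.28, 4.82 and 4.68 in DNCB skin, 6.03, 2.84 and 2.16 in scMSC skin and 5.28, 4.72 and 2.12 in scivMSC skin. Control 2 was below all 3 DNCB libraries, and the change was -0.50 ± 0.39, adjusted p 0.390.

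The type I effectors block viral replication: Ifit proteins bind foreign RNA, Oas enzymes trigger its decay, and Mx proteins trap viral particles, although Mx1 is known to be defective in many inbred laboratory strains. Of the 9 tested, 0 passed in DNCB against control by edgeR, where 12.4% of all genes were lower and 12.9% higher. By DESeq2 0 passed and by limma 0, with 1 (Ifit3) at an unadjusted p under 0.05. The median log2 fold change was -0.25. Ifit1 had 0.717, 1.37 and 2.60 FPKM in control skin, 2.98, 1.56 and 1.16 in DNCB skin, 1.90, 0.323 and 0.615 in scMSC skin and 0.666, 1.14 and 0.584 in scivMSC skin. DNCB 1 and control 3 were the highest, and the groups overlapped. For Ifit3 the levels were 2.52, 3.92 and 15.7 FPKM in control skin, 3.32, 3.36 and 3.22 in DNCB skin, 4.32, 1.45 and 2.26 in scMSC skin and 2.11, 2.81 and 1.54 in scivMSC skin. Control 3 was several times above the other 11 libraries, while the DNCB libraries were almost equal. The log2 fold changes in DNCB skin were 0.12 ± 0.63, adjusted p 0.920 for Ifit1 and -1.30 ± 0.58, adjusted p 0.128 for Ifit3.

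The same library was far above the rest in Oas2 and Oasl2. Oas2 had 1.15, 2.42 and 9.96 FPKM in control skin, 3.45, 3.28 and 3.45 in DNCB skin, 3.73, 0.881 and 1.31 in scMSC skin and 2.73, 3.74 and 0.924 in scivMSC skin. Those of DNCB skin were nearly equal and lay between control 2 and control 3. Oasl2, a relative of the Oas enzymes, had 1.74, 2.24 and 6.55 FPKM in control skin, 3.19, 2.47 and 2.39 in DNCB skin, 3.12, 0.957 and 1.01 in scMSC skin and 1.47, 2.24 and 0.696 in scivMSC skin. Control 3 again stood alone, with the DNCB libraries above the other controls. Mx1 had 0.391, 1.29 and 2.00 FPKM in control skin, 1.87, 1.01 and 1.17 in DNCB skin, 1.29, 0.463 and 0.250 in scMSC skin and 0.663, 1.20 and 0.652 in scivMSC skin. Here control 1 was low and control 3 high, and the DNCB libraries were within the range of all 3 controls. None passed: the changes were -0.55 ± 0.73, adjusted p 0.635 for Oas2, -0.54 ± 0.56, adjusted p 0.536 for Oasl2 and -0.031 ± 0.63, adjusted p 0.983 for Mx1.

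Without control 3, the median log2 fold change of the type I effectors in DNCB skin went from -0.25 to 0.42. The direction of this shift was fixed in advance, since control 3 was the highest control library in all 9. It was above 0 in 8 of 9, while Ifit3 was at -0.23 ± 0.41, adjusted p 0.744, and 1 of 9 passed, the synthetase Oas3, which was higher at 2.38 ± 0.69, adjusted p 0.0349. Oas3 was chosen after its values were seen, since its call rested on 1 library. It had 0.128, 0.129 and 1.84 FPKM in control skin, 1.08, 0.579 and 0.779 in DNCB skin, 0.480, 0.168 and 0.138 in scMSC skin and 0.132, 0.373 and 0.109 in scivMSC skin. Controls 1 and 2 were near the bottom of all 12 libraries and control 3 at the top. With all 3 controls it was at 0.089 ± 0.92, adjusted p 0.961. Over all members without control 3, 1 was higher and 4 were lower, where 9.86% of all genes were higher and 12.3% were lower. The 4 lower genes were Tap1, Psmb8, Psmb9 and Ifi27, and the member median was -0.020. Without scMSC 1, which enters this comparison only through the spread shared by the groups, 10 members were lower, where 12.2% of all genes were. Whether the fold changes of the antigen processing genes differ from those of the type I effectors was not tested.

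**Figure D2:**
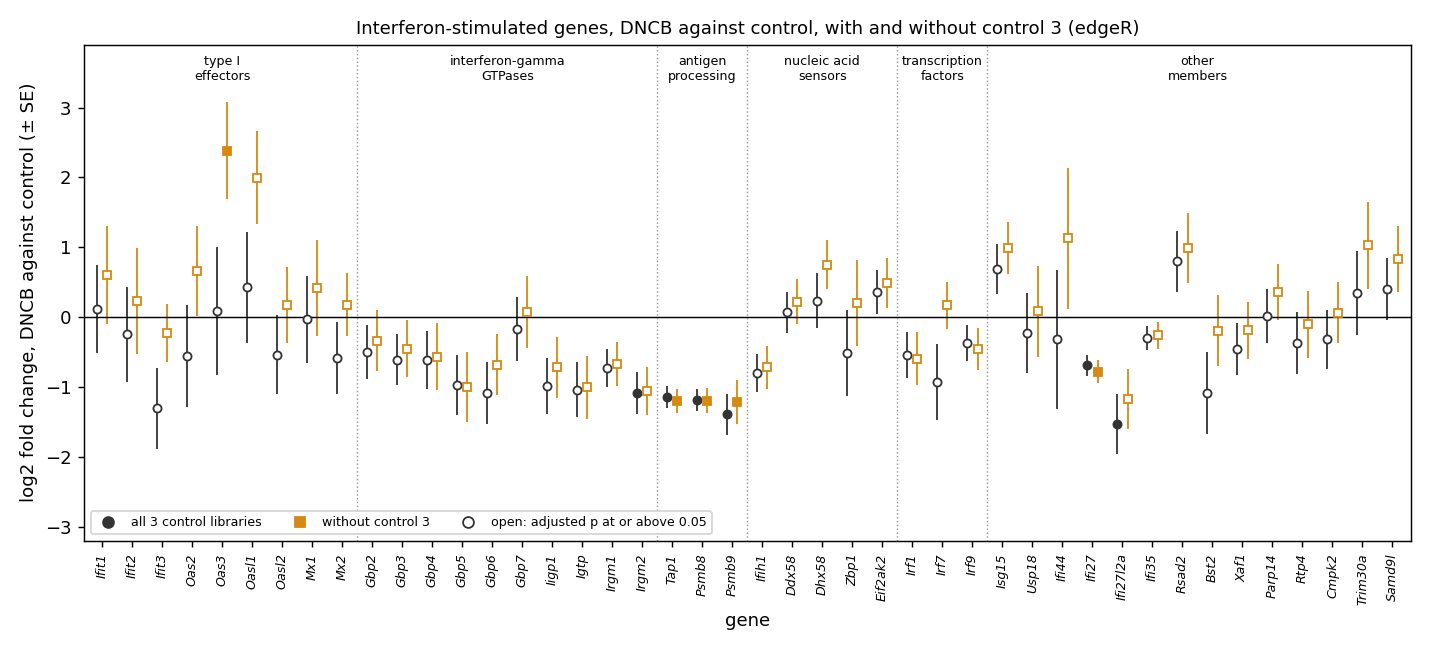
Log2 fold change of each of the 44 tested genes in DNCB against control skin with its standard error, from all 3 control libraries (circles) and without control 3 (squares), filled where the adjusted p was under 0.05. Tap1, Psmb8, Psmb9 and Ifi27 were filled in both, while Oas3 moved from 0.089 to 2.38.

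Ifi27 and Ifi27l2a, the most abundant members by group mean, both fell in DNCB skin. Ifi27 had 47.2, 53.6 and 48.5 FPKM in control skin, 32.9, 34.1 and 38.4 in DNCB skin, 45.2, 28.7 and 31.1 in scMSC skin and 46.6, 44.5 and 42.4 in scivMSC skin. Control and DNCB libraries did not overlap, and the scivMSC libraries lay between them. Its change in DNCB skin was -0.69 ± 0.15, adjusted p 0.00667. Ifi27l2a had 103, 105 and 219 FPKM in control skin, 56.1, 49.8 and 60.4 in DNCB skin, 84.7, 29.2 and 28.5 in scMSC skin and 44.98, 74.4 and 36.1 in scivMSC skin. All DNCB libraries were below all controls, of which control 3 was the highest by far. The change was -1.53 ± 0.43, adjusted p 0.0237, a call lost without control 3 (adjusted p 0.0814), DNCB 1 (0.0690), DNCB 2 (0.0759) or DNCB 3 (0.0609). Isg15, a ubiquitin-like protein that is joined to other proteins during the antiviral response, had 8.73, 7.24 and 15.5 FPKM in control skin, 21.9, 16.0 and 19.2 in DNCB skin, 25.2, 8.42 and 16.6 in scMSC skin and 8.73, 13.4 and 10.02 in scivMSC skin. All 3 DNCB libraries were above all controls, but scMSC 1 was the highest of the 12. The change in DNCB skin, 0.69 ± 0.36, adjusted p 0.189, did not pass.

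Sensors and transcription factors of the list had no member that passed in DNCB against control by edgeR. Of all genes, 12.4% were lower and 12.9% higher. At an unadjusted p under 0.05 there were 1 of 5 and 0 of 3. By DESeq2, 1 sensor (Ifih1) and 0 factors passed, and by limma 0 and 0. Ifih1, the sensor of long double-stranded RNA known as MDA5, had 2.23, 1.75 and 2.70 FPKM in control skin, 1.39, 1.54 and 1.40 in DNCB skin, 2.54, 1.48 and 1.40 in scMSC skin and 1.74, 1.68 and 0.884 in scivMSC skin. The DNCB libraries were below the controls without overlap, and the change was -0.80 ± 0.27, adjusted p 0.0523. Zbp1, a sensor of left-handed nucleic acid that can start necroptosis, had 1.25, 1.496 and 4.54 FPKM in control skin, 2.05, 1.71 and 1.92 in DNCB skin, 1.13, 0.364 and 0.544 in scMSC skin and 0.740, 0.893 and 0.155 in scivMSC skin. Control 3 was highest and scivMSC 3 lowest, and DNCB skin lay within the control range at -0.51 ± 0.62, adjusted p 0.598.

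Irf1, the main transcription factor of the interferon-gamma response, had 7.79, 5.76 and 7.13 FPKM in control skin, 2.68, 6.61 and 6.80 in DNCB skin, 5.74, 3.10 and 3.76 in scMSC skin and 4.74, 4.77 and 3.21 in scivMSC skin. DNCB 1 was the lowest of the 12 libraries, while DNCB 2 and DNCB 3 lay within the control range. Irf7, which amplifies type I interferon production, had 2.51, 2.85 and 13.3 FPKM in control skin, 4.00, 3.41 and 3.45 in DNCB skin, 3.69, 1.95 and 1.59 in scMSC skin and 1.89, 2.46 and 1.36 in scivMSC skin. Control 3 was far above the rest, and the DNCB libraries were above controls 1 and 2. Irf9, the partner of Stat2, had 7.47, 5.31 and 6.20 FPKM in control skin, 5.18, 6.94 and 4.56 in DNCB skin, 9.77, 4.505 and 5.56 in scMSC skin and 7.06, 5.65 and 7.12 in scivMSC skin. Its groups overlapped, with scMSC 1 the highest. The changes in DNCB skin were -0.54 ± 0.33, adjusted p 0.255 for Irf1, -0.92 ± 0.54, adjusted p 0.246 for Irf7 and -0.37 ± 0.26, adjusted p 0.344 for Irf9.

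Across the control and DNCB libraries, 10 of 44 members had every DNCB library below every control, where 16.1% of all genes tested did. They were Gbp5, Igtp, Irgm1, Irgm2, Tap1, Psmb8, Psmb9, Ifih1, Ifi27 and Ifi27l2a. None of these 10 is a type I effector. Every DNCB library was above every control in 3 members, Eif2ak2, Isg15 and Rsad2, where 31.7% of all genes were.

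**Figure D3:**
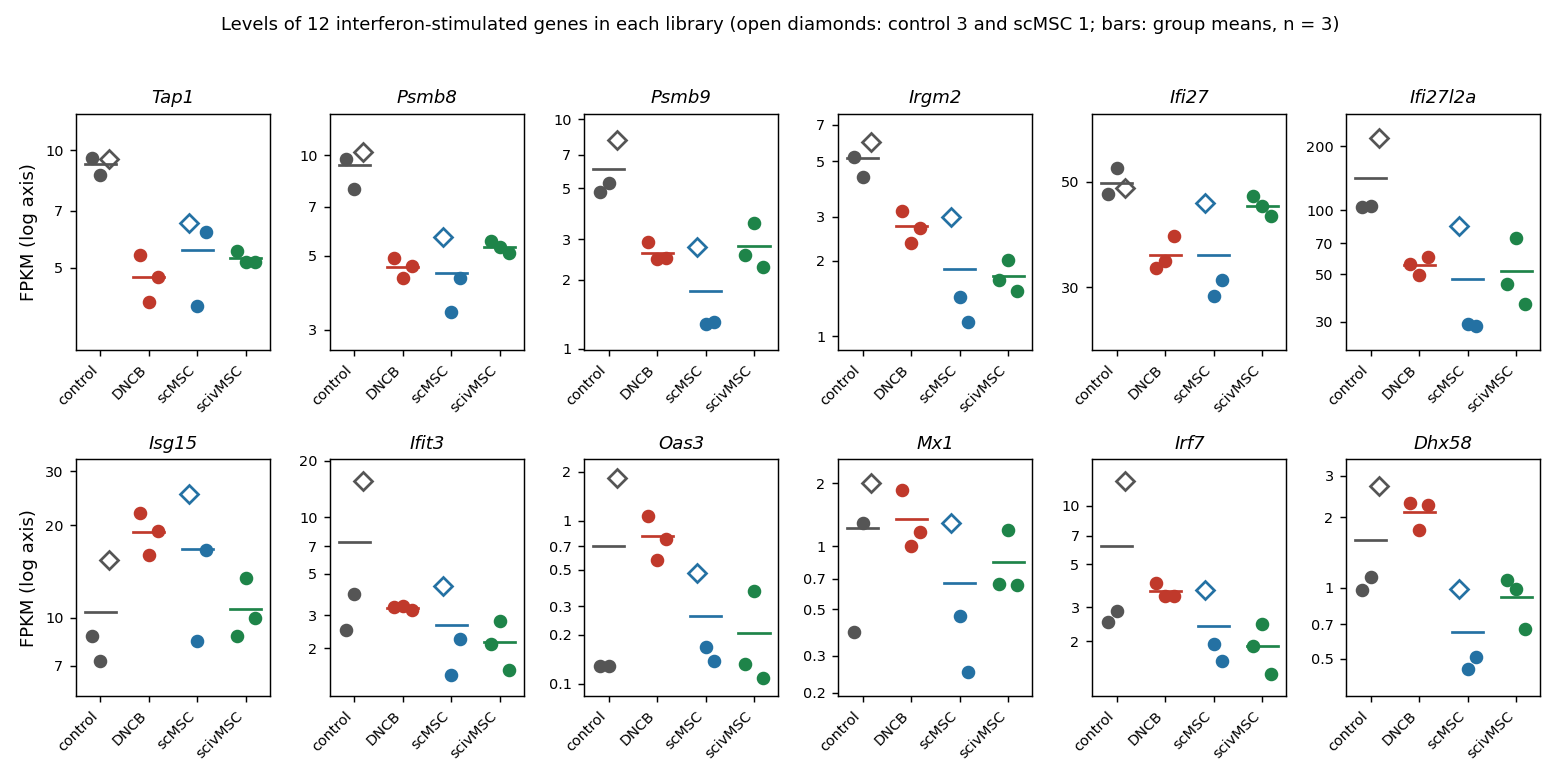
FPKM of 12 genes on log axes, with 1 point for each library, bars for group means (n = 3) and open diamonds for control 3 and scMSC 1. Tap1, Psmb8 and Psmb9 were higher in all 3 control libraries than in any other, whereas for Ifit3, Oas3 and Irf7 control 3 was above the other 11.

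scMSC against DNCB asks what differed after injections of stem cells under the skin. Dhx58, the RNA helicase LGP2 that modulates the sensing of viral RNA, was the 1 member of 44 that fell, and none rose, where 5.77% of all genes tested were lower and 6.95% were higher. The median over the members was -0.56, against 0.016 for all genes. An unadjusted p under 0.05 was found for 8 members, all lower, a count given without the share of all genes at that threshold. DESeq2 called 3 members lower (Dhx58, Gbp3 and Rsad2), where 9.08% of all genes were. By limma 1 was lower (Dhx58), and the share of all genes by limma is not given here.

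Dhx58 had 0.979, 1.11 and 2.71 FPKM in control skin, 2.31, 1.77 and 2.26 in DNCB skin, 0.990, 0.449 and 0.508 in scMSC skin and 1.08, 0.990 and 0.667 in scivMSC skin. All scMSC libraries were below all DNCB libraries, and so were all scivMSC libraries, while controls 1 and 2 were near the higher of the treated libraries and control 3 was above DNCB. Dhx58 was 3.20-fold lower in scMSC than in DNCB skin (-1.68 ± 0.40, adjusted p 0.0207). The call was lost without DNCB 1 (adjusted p 0.0643), DNCB 3 (0.0591), scMSC 2 (0.0807) or scMSC 3 (0.0749), and no member passed in those fits.

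Of the single libraries, scMSC 1 changed this comparison most when left out. As the highest scMSC library in every member, it had to lower the scMSC means of the members when left out. Without it, 8 members were lower, where 6.09% of all genes were, and the median over the members was -1.04. An unadjusted p under 0.05 was found for 27 of 44, a count given without the share of all genes at that threshold. The 8 were Gbp3, Gbp5, Irgm1, Irgm2, Psmb9, Dhx58, Rsad2 and Parp14, so that 4 of 10 GTPases were among them. Irgm2 was then at -1.03 ± 0.22, adjusted p 0.0136, where with all libraries it was at -0.55 ± 0.30, adjusted p 0.288. For the type I effectors the median went from -0.93 to -1.85, and 0 of 9 passed by edgeR, with 5 at an unadjusted p under 0.05. DESeq2 and limma, run on all 12 libraries, called 0 and 0 of the type I effectors. With both scMSC 1 and control 3 left out, an alternative chosen after seeing the data, edgeR called 13 members lower, where 6.20% of all genes were, among them the type I effectors Oas3 and Oasl1, both chosen after their values were seen. Without scMSC 1 the group has 2 libraries.

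The antigen processing genes did not pass in scMSC against DNCB. Tap1 was at 0.25 ± 0.16, adjusted p 0.377, Psmb8 at -0.045 ± 0.16, adjusted p 0.912 and Psmb9 at -0.54 ± 0.29, adjusted p 0.283. By edgeR 0 of the 3 were called, with 0 at an unadjusted p under 0.05, and the count was 0 by DESeq2 and 0 by limma. In Psmb9, scMSC 1 lay within the DNCB range and scMSC 2 and scMSC 3 below it, and without scMSC 1 it passed at -0.96 ± 0.24, adjusted p 0.0293. Every scMSC library was below every DNCB library in 10 of 44 members, where 17.1% of all genes were. These were Oas3, Oasl1, Dhx58, Zbp1, Eif2ak2, Rsad2, Rtp4, Cmpk2, Trim30a and Samd9l. No GTPase and no antigen processing gene was among them. The reverse held in 0 members, where 16.0% of all genes were above.

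scivMSC against DNCB asks the same of injections given by both routes. By edgeR 0 of 44 members passed, where 3.60% of all genes tested were lower and 4.56% higher. At an unadjusted p under 0.05 there were 7 members, of which Ifi27 was higher at 0.35 and the others lower. The share of all genes at that threshold is not given here. DESeq2 called 2 (Dhx58 and Zbp1, both lower, where 7.63% of all genes were) and limma 0. The median over the members was -0.59, close to the -0.56 of scMSC against DNCB, which shares the DNCB libraries. Without control 3, Dhx58 passed at -1.20 ± 0.31, adjusted p 0.0478, as 1 member lower where 3.31% of all genes were. With both control 3 and scMSC 1 left out, 3 were lower (Dhx58, Irf7 and the type I effector Oas3), where 3.96% of all genes were.

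The libraries separated more often here than the test called. All scivMSC libraries were below all DNCB libraries in 20 of 44 members, where 16.3% of all genes tested were, and above them in 3, where 16.4% were. The 20 held 5 type I effectors (Ifit1, Ifit3, Oas3, Oasl1 and Oasl2), the GTPases Gbp3, Iigp1 and Irgm2, 4 of 5 sensors (Ifih1 was the exception), Irf7, Isg15, Ifi44, Rsad2, Parp14, Cmpk2, Trim30a and Samd9l. The 3 above were Gbp6, Psmb8 and Ifi27. Ifit1 was at -1.25 ± 0.64, adjusted p 0.284 and Zbp1 at -1.67 ± 0.64, adjusted p 0.141. Isg15 was at -0.82 ± 0.36, adjusted p 0.203, with its DNCB libraries from 16.0 to 21.9 FPKM and its scivMSC libraries from 8.73 to 13.4.

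By role, the type I effectors had a median of -0.68 in scivMSC against DNCB, the GTPases -0.37, the antigen processing genes 0.17, the sensors -0.76, the transcription factors -0.34 and the other targets -0.58. In scMSC against DNCB the same medians were -0.93, -0.40, -0.045, -0.70, -0.34 and -0.68. All genes tested had medians of 0.023 and 0.016. Tap1 was at 0.17 ± 0.16, adjusted p 0.598 and Psmb9 at 0.10 ± 0.29, adjusted p 0.899 in scivMSC against DNCB.

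Treated against control skin compares the ends of the experiment. Relative to control, scMSC skin had 10 of 44 members lower and 0 higher, where 8.12% of all genes were lower and 10.4% higher. They were Gbp3, Irgm1, Irgm2, Tap1, Psmb8, Psmb9, Dhx58, Ifi27, Ifi27l2a and Ifi35. In scivMSC skin 9 were lower and 0 higher, where 6.13% of all genes were lower and 7.11% higher: Gbp3, Iigp1, Irgm1, Irgm2, Tap1, Psmb8, Psmb9, Zbp1 and Ifi27l2a. DESeq2 called 20 members lower in scMSC skin, where 12.5% of all genes were, and 16 in scivMSC skin, where 11.2% were. A fit of only the 6 libraries compared called 5 in scMSC skin, where 4.67% of all genes were. These comparisons share the control libraries with each other and with DNCB against control. Gbp3, a guanylate-binding protein, and Ifi35, a target that binds Nmi, were chosen after their values were seen.

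Among the antigen processing genes Psmb9 had the largest fold change, -1.93 ± 0.30, adjusted p 0.00233 in scMSC and -1.29 ± 0.30, adjusted p 0.0178 in scivMSC skin. Tap1 was at -0.90 ± 0.16, adjusted p 0.00394 and -0.98 ± 0.16, adjusted p 0.00557, and Psmb8 at -1.23 ± 0.16, adjusted p 0.00126 and -0.98 ± 0.16, adjusted p 0.00561. These 3 genes were lower than control in all 3 DNCB-treated groups. Irgm2 was at -1.64 ± 0.30, adjusted p 0.00509 against control in scMSC and -1.74 ± 0.31, adjusted p 0.00719 in scivMSC skin. Irgm1 was at -1.37 ± 0.28, adjusted p 0.00742 and -1.09 ± 0.28, adjusted p 0.0264. With all 12 libraries, 0 of 9 type I effectors passed against control in either treated group by edgeR, with 1 and 2 at an unadjusted p under 0.05. DESeq2 called 1 and 2 of them, and limma 0 and 0.

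These counts also leaned on single libraries. Control 3 and scMSC 1 stood high in most members, which fixed in advance the direction in which leaving either out shifts the fold changes. Without control 3, 7 members were lower in scMSC skin, where 8.31% of all genes were, and 4 in scivMSC skin, where 6.90% were. Tap1, Psmb8, Psmb9 and Irgm2 were in both. Without scMSC 1, 21 members were lower in scMSC skin, where 8.06% of all genes were. They include the type I effectors Ifit2 at -2.32 ± 0.65, adjusted p 0.0341 and Oasl2 at -1.93 ± 0.58, adjusted p 0.0437, of which Ifit2 was chosen after its values were seen. Without scivMSC 1, 4 members were lower in scivMSC skin, where 2.85% of all genes were, and without scivMSC 3 also 4, where 7.61% were. Psmb9 was no longer called in scivMSC skin without scivMSC 1 (adjusted p 0.0663).

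scivMSC against scMSC asks whether the route mattered. By edgeR 0 of 44 members passed, where 0.00457% of all genes, a single gene, did. There was 1 member (Ifi27) at an unadjusted p under 0.05, and DESeq2 and limma called 0 and 0. The median was 0.10, against 0.0077 for all genes. Tap1 was at -0.080 ± 0.16, adjusted p 0.984, Irgm2 at -0.10 ± 0.30, adjusted p 0.988 and Isg15 at -0.64 ± 0.36, adjusted p 0.745.

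The interferon ligands that were analysed were at the limit of detection. Of the ligands looked for, Ifnb1 had at most 11 estimated counts in any library, Ifnk 27, Ifng 8 and Ifnl2 3, and none could be tested. Counts of Ifng were above 0 in scivMSC 1 alone. A difference in ligand RNA between the groups was not detectable at this depth. The other ligands of the list, Ifna1, Ifna2, Ifna4, Ifna5, Ifne and Ifnl3, were not analysed here.

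The type I receptor chain Ifnar2 rose in DNCB skin. Ifnar2 had 4.48, 3.61 and 5.97 FPKM in control skin, 9.09, 10.4 and 10.3 in DNCB skin, 5.29, 3.30 and 4.48 in scMSC skin and 6.28, 6.86 and 4.04 in scivMSC skin. The DNCB libraries were above all 9 others. It was at 0.91 ± 0.21, adjusted p 0.0105 in DNCB against control, -1.18 ± 0.21, adjusted p 0.00604 in scMSC against DNCB and -0.80 ± 0.21, adjusted p 0.0440 in scivMSC against DNCB. Ifnar1, its partner, had 6.33, 5.22 and 6.45 FPKM in control skin, 9.25, 9.87 and 10.49 in DNCB skin, 8.23, 5.93 and 7.24 in scMSC skin and 5.90, 8.05 and 3.47 in scivMSC skin. DNCB libraries were again highest, but none of the 3 tests passed, with an adjusted p of 0.103 against control.

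For interferon-gamma, the receptor chain Ifngr2 had 22.9, 22.7 and 15.4 FPKM in control skin, 13.1, 12.2 and 15.2 in DNCB skin, 16.1, 14.4 and 14.5 in scMSC skin and 14.0, 12.9 and 14.2 in scivMSC skin. Controls 1 and 2 were the highest and control 3 was just above DNCB 3. It fell in DNCB skin at -0.78 ± 0.17, adjusted p 0.00760. Ifngr1, the ligand-binding chain, had 7.18, 7.13 and 14.9 FPKM in control skin, 8.93, 9.04 and 16.1 in DNCB skin, 15.1, 6.53 and 8.56 in scMSC skin and 18.5, 23.4 and 5.53 in scivMSC skin. Its libraries spread widely within each group, and it was at 0.052 ± 0.48, adjusted p 0.956. The receptor chains of interferon-lambda, Ifnlr1 and Il10rb, were at -0.41 ± 0.20, adjusted p 0.164 and 0.52 ± 0.19, adjusted p 0.0671. Ifnlr1 had 2.96, 2.64 and 4.07 FPKM in control skin, 2.98, 2.24 and 2.99 in DNCB skin, 4.31, 3.86 and 3.53 in scMSC skin and 3.47, 3.82 and 4.77 in scivMSC skin. Il10rb had 4.53, 5.35 and 6.74 FPKM in control skin, 8.79, 9.15 and 9.12 in DNCB skin, 8.06, 5.49 and 4.68 in scMSC skin and 6.69, 6.99 and 5.14 in scivMSC skin. For Il10rb the DNCB libraries were the 3 highest of the 12. For Ifnlr1 the control and DNCB libraries overlapped, while every DNCB library was below every scMSC and scivMSC library.

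Stat2, which carries the signal of type I interferons to the nucleus, had 2.70, 1.98 and 4.78 FPKM in control skin, 3.16, 3.10 and 3.52 in DNCB skin, 5.05, 2.41 and 2.75 in scMSC skin and 3.61, 3.77 and 2.77 in scivMSC skin. Its highest values were in scMSC 1 and control 3, and its log2 fold changes in the 3 comparisons with DNCB were -0.12, 0.072 and 0.055. The kinases at the receptors, Jak1 and Jak2, were at 0.35 ± 0.21, adjusted p 0.259 and 0.45 ± 0.18, adjusted p 0.0973 in DNCB against control. In scMSC against DNCB both fell, at -0.92 ± 0.21, adjusted p 0.0174 and -0.70 ± 0.18, adjusted p 0.0299. In scivMSC against DNCB Jak2 fell at -0.73 ± 0.18, adjusted p 0.0350, and Jak1 was at -0.65 ± 0.21, adjusted p 0.0920.

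Of 5 inhibitors of the pathway, 3 rose in DNCB skin, where 12.9% of all genes did, with a median of 0.75. Socs3, an inhibitor of Jak kinases that is also induced by interleukin-6, had 16.4, 13.02 and 12.2 FPKM in control skin, 55.5, 29.4 and 43.1 in DNCB skin, 10.7, 6.12 and 5.22 in scMSC skin and 8.52, 16.5 and 8.88 in scivMSC skin. All DNCB libraries were above the other 9. It was at 1.43 ± 0.33, adjusted p 0.00948, and -2.52 ± 0.34, adjusted p 0.00220 in scMSC and -1.92 ± 0.33, adjusted p 0.00913 in scivMSC against DNCB. Socs1, the inhibitor most closely tied to interferon-gamma, had 0.969, 1.55 and 1.45 FPKM in control skin, 2.75, 1.72 and 2.27 in DNCB skin, 1.06, 0.805 and 0.766 in scMSC skin and 0.954, 1.53 and 1.17 in scivMSC skin. DNCB libraries were highest here too, but the change against control, 0.58 ± 0.28, adjusted p 0.158, did not pass, while scMSC against DNCB did at -1.34 ± 0.28, adjusted p 0.0117. The phosphatases Ptpn2 and Ptpn6, which take phosphate off Jak and Stat proteins, rose at 0.75 ± 0.14, adjusted p 0.00397 and 0.78 ± 0.24, adjusted p 0.0338. Ptpn6 fell against DNCB in scMSC skin at -1.08 ± 0.24, adjusted p 0.0141 and in scivMSC skin at -0.97 ± 0.24, adjusted p 0.0323, where Socs1 was at -0.87 ± 0.28, adjusted p 0.0850.

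Chemokines that interferon-gamma induces to draw in T cells had log2 fold changes of opposite sign in DNCB skin. Cxcl9 had 1.19, 0.599 and 0.988 FPKM in control skin, 0.629, 0.377 and 0.345 in DNCB skin, 0.832, 0.332 and 0.651 in scMSC skin and 1.10, 1.04 and 0.439 in scivMSC skin. DNCB 2 and DNCB 3 were below all controls, and DNCB 1 just above control 2. Cxcl10 had 0.760, 0.550 and 0.555 FPKM in control skin, 1.59, 0.966 and 1.31 in DNCB skin, 0.753, 0.493 and 1.05 in scMSC skin and 0.40, 0.884 and 0.590 in scivMSC skin. The DNCB libraries were above the controls. Neither passed, Cxcl9 at -1.21 ± 0.45, adjusted p 0.0702 and Cxcl10 at 0.85 ± 0.38, adjusted p 0.131. Nos2, the inducible nitric oxide synthase, had 0.243, 0.246 and 0.354 FPKM in control skin, 4.90, 2.28 and 2.92 in DNCB skin, 0.0615, 0.0728 and 0.0688 in scMSC skin and 0.0312, 0.142 and 0 in scivMSC skin. The DNCB libraries were above all others, and all scMSC and scivMSC libraries below the controls. Of the 6 genes tested in this list, 2 rose in DNCB skin, where 12.9% of all genes did: Nos2 at 3.40 ± 0.84, adjusted p 0.0139 and the adhesion molecule Icam1 at 1.39 ± 0.25, adjusted p 0.00289, both of which answer to other signals as well. In scMSC skin 3 fell against DNCB, where 5.77% of all genes did: Nos2 at -5.56, Icam1 at -1.39 and Cd274, the ligand PD-L1, at -1.77. The same 3 fell in scivMSC skin, where 3.60% of all genes did, at -5.84, -1.30 and -1.49. Cxcl11 and Ido1 were too low to test.

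Of 14 other genes of class I antigen presentation, 6 fell and 2 rose in DNCB against control, where 12.4% of all genes fell and 12.9% rose, with a median of -0.55. Tap2, the partner of Tap1, fell at -1.10 ± 0.21, adjusted p 0.00373. The chaperones Pdia3 and Calr, which serve protein folding at large, rose at 1.01 ± 0.16, adjusted p 0.00187 and 0.89 ± 0.17, adjusted p 0.00348. Further ones that fell were B2m, the light chain of class I molecules, at -0.87, H2-D1, H2-Q4 and H2-T23, class I heavy chains, at -0.71, -1.21 and -0.99, and Nlrc5, the transactivator of class I genes, at -1.26, all chosen after their values were seen. Class I heavy chains are similar in sequence, so reads may not be assigned to the right copy. The third immunoproteasome subunit, Psmb10, was at -0.15 ± 0.21, adjusted p 0.643 in DNCB skin and fell against DNCB in scMSC skin at -0.91 ± 0.21, adjusted p 0.0162 and in scivMSC skin at -0.76 ± 0.21, adjusted p 0.0466. Of the constitutive subunits that the immunoproteasome replaces, Psmb7 fell at -0.42 ± 0.14, adjusted p 0.0490 in DNCB skin, while Psmb5 was at -0.20 ± 0.21, adjusted p 0.556 and Psmb6 at -0.22 ± 0.15, adjusted p 0.323.

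In the treated groups Tap2 was at 0.40 ± 0.21, adjusted p 0.266 in scMSC against DNCB. Erap1, a peptidase that trims peptides, was at -0.33 ± 0.15, adjusted p 0.192 there. In scivMSC against DNCB, Tapbp, which bridges the peptide pump and class I molecules, was at -0.69 ± 0.22, adjusted p 0.0905 and Nlrc5 at 0.59 ± 0.25, adjusted p 0.190. Of the 14 genes, 1 passed in each of these comparisons (Psmb10, lower), where 5.77% and 3.60% of all genes were lower. The medians were -0.10 and 0.16. Of the 3 constitutive subunits 0 passed by edgeR, 0 by DESeq2 and 0 by limma, with 0 at an unadjusted p under 0.05.

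Among 50 further interferon targets, 6 rose and 6 fell in DNCB skin, shares near the 12.9% and 12.4% of all genes, with a median of -0.0096. Against DNCB, 6 fell in scMSC skin, where 5.77% of all genes did, and 4 in scivMSC skin, where 3.60% did and where 1, the guanylate-binding protein Gbp10, rose. The 4 that fell in scivMSC skin were Ifitm1, Ifitm2, Slfn2 and Slfn4, of which Slfn4, a relative of Slfn2, was chosen after its values were seen, as was Gbp10. Ifitm1, a membrane protein that blocks viral entry, had the smallest p in each of these comparisons: it was at 3.01 ± 0.30, adjusted p 0.000431 in DNCB skin, then -2.85 ± 0.30, adjusted p 0.00126 and -2.67 ± 0.29, adjusted p 0.00255 in the treated groups against DNCB. It had 4.59, 3.61 and 4.41 FPKM in control skin, 37.8, 36.7 and 41.7 in DNCB skin, 6.91, 5.86 and 2.99 in scMSC skin and 5.97, 7.73 and 4.46 in scivMSC skin. Its DNCB libraries were far above the other 9. In the same comparisons Slfn2, a regulator of immune cell quiescence, was at 1.94 ± 0.43, adjusted p 0.00817, -2.92 ± 0.45, adjusted p 0.00306 and -2.46 ± 0.44, adjusted p 0.0101. Ifitm2, of the same family as Ifitm1, fell against DNCB at -1.14 in scMSC and -1.08 in scivMSC skin. Ifit3b, a close copy of Ifit3 whose reads may not be told apart from it, fell in DNCB skin at -1.25 ± 0.30, adjusted p 0.0109.

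Of 11 genes of upstream sensing, the DNA sensor Cgas rose at 0.82 ± 0.19, adjusted p 0.00941 and the adaptor Mavs fell at -0.68 ± 0.12, adjusted p 0.00264 in DNCB skin, where the kinase Tbk1 was at 0.32 ± 0.11, adjusted p 0.0635. In this list 0 passed in scMSC or scivMSC against DNCB by edgeR. At an unadjusted p under 0.05 there were 2 in each, DESeq2 called 1 and 2, and limma 0 and 0. The DNA sensing adaptor Sting1 was at -1.13 ± 0.34, adjusted p 0.0505 and -0.94 ± 0.34, adjusted p 0.116 there, Mavs at 0.19 and 0.39, the factor Irf8 at -1.50 in scMSC and the factor Irf3 at 0.28 in scivMSC skin.

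Cell type markers moved with the groups as well. Of all genes, 12.9% rose in DNCB skin, and against DNCB 5.77% fell in scMSC and 3.60% in scivMSC skin. All 7 neutrophil markers rose in DNCB skin and fell in both treated groups against DNCB. Among them was Cxcr2, the chemokine receptor of neutrophils, at 2.36, -3.53 and -2.34. The 7 markers summed to 122.8, 120.4 and 207 FPKM in control skin, 3145, 3433 and 2464 in DNCB skin, 41.7, 65.3 and 15.8 in scMSC skin and 34.3, 177 and 82.0 in scivMSC skin. S100a9, a calcium-binding protein of granulocytes, or its partner S100a8 was the most abundant. Ly6g, the defining surface marker, was at 0 in all 9 libraries outside the DNCB group and at 2.67, 4.93 and 1.83 FPKM in DNCB skin. The 4 fibroblast markers also rose in DNCB skin, with a median of 2.98. They summed to 179.7, 144 and 209 FPKM in control skin, 1843, 1974 and 1641 in DNCB skin, 574, 177 and 229 in scMSC skin and 533, 781 and 97.3 in scivMSC skin, with none at 0, and Col3a1 and Col1a1 were the most abundant. Of 4 keratinocyte markers, Krt5 and Krt14 of the basal layer rose, and the 4 summed to 4346, 6544 and 9582 FPKM in control skin, 17158, 18982 and 12964 in DNCB skin, 7672, 5134 and 4364 in scMSC skin and 9774, 14177 and 7366 in scivMSC skin, with Krt10 or Krt14 the most abundant and none at 0. In scMSC against DNCB 3 fibroblast and 2 keratinocyte markers fell, and in scivMSC against DNCB 2 keratinocyte markers did. Whether these cell types have a part in the interferon values was not tested.

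Skeletal muscle RNA was highest in control skin and fell in DNCB skin in 3 of 4 markers, where 12.4% of all genes fell. The 4 summed to 16196, 17161 and 11721 FPKM in control skin, 3150.4, 3936 and 4737 in DNCB skin, 5645, 3312 and 7140.5 in scMSC skin and 4745, 3611 and 8490.0 in scivMSC skin, with Acta1, skeletal actin, the most abundant and none at 0. Tap1, Psmb8 and Psmb9 were highest in the same control libraries, and whether muscle has a part in that was not tested. The 6 tested T cell markers summed to 3.86, 2.49 and 4.75 FPKM in control skin, 2.99, 3.37 and 3.36 in DNCB skin, 2.56, 1.38 and 1.15 in scMSC skin and 3.09, 2.54 and 2.50 in scivMSC skin. In DNCB against control 1 of the 6 passed, Cd4, which rose at 1.78 ± 0.55, adjusted p 0.0357 and fell in scMSC against DNCB at -2.20 ± 0.56, adjusted p 0.0262. The list median against control was -0.74. Cd2, Cd3e, Cd3g and Cd3d were at -1.61, -1.54, -1.16 and -0.33, with an adjusted p of 0.0594, 0.143, 0.0899 and 0.675, and Cd5 was at 0.50. Cd8a was too low to test. Cd207, the langerin of Langerhans cells, fell at -2.04 ± 0.41, adjusted p 0.00494, and rose against DNCB at 1.49 ± 0.40, adjusted p 0.0342 in scMSC and 2.29 ± 0.41, adjusted p 0.0102 in scivMSC skin. It was the 1 of 6 dendritic cell markers that passed.

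Macrophage markers had 1 of 7 pass in DNCB against control, Cd14, a receptor for bacterial lipopolysaccharide, which rose at 4.85 and fell at -5.10 in scMSC and -4.56 in scivMSC against DNCB. The 6 dendritic and Langerhans cell markers summed to 12.8, 10.9 and 14.4 FPKM in control skin, 5.42, 7.68 and 5.90 in DNCB skin, 14.3, 5.90 and 4.99 in scMSC skin and 15.4, 12.2 and 8.22 in scivMSC skin. The list for plasmacytoid dendritic cells, a source of type I interferon, held 3 markers. Of these Cox6a2, also known from muscle, fell in DNCB skin at -2.50 and made up most of the summed level. Like the sum of the skeletal muscle markers, this sum was highest in the control libraries. RNA of muscle and of plasmacytoid cells cannot be told apart in it, so it is not read as a level of these cells. The 3 markers summed to 347, 344 and 225 FPKM in control skin, 54.9, 59.8 and 71.2 in DNCB skin, 77.3, 51.0 and 108 in scMSC skin and 63.7, 47.2 and 164 in scivMSC skin. Siglech, the defining surface marker, did not pass, at -1.95, adjusted p 0.0638. Of 4 markers of NK and cytotoxic cells, a source of interferon-gamma, 0 passed in DNCB against control by edgeR (0 at an unadjusted p under 0.05, 0 by DESeq2 and 0 by limma), and they summed to 0.584, 0.966 and 2.88 FPKM in control skin, 0.583, 0.456 and 0.666 in DNCB skin, 1.64, 0.271 and 0.959 in scMSC skin and 0.933, 1.26 and 0.505 in scivMSC skin.

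For the counts that follow, 12.4% of all genes fell and 12.9% rose in DNCB against control by edgeR. Against DNCB, 5.77% fell and 6.95% rose in scMSC skin, and 3.60% fell and 4.56% rose in scivMSC skin. Of 5 hair follicle markers, the hair keratin Krt34 rose in DNCB skin, and 3 (Krt31, Krt34 and Lef1) rose against DNCB in both treated groups. They summed to 5.99, 198 and 1.81 FPKM in control skin, 252, 177 and 552 in DNCB skin, 3562, 9704 and 5480.1 in scMSC skin and 3368, 1373 and 1873 in scivMSC skin. Of 4 endothelial markers, Pecam1 rose in DNCB skin at 0.96, and Pecam1 and Cdh5 fell in scMSC and Cdh5 in scivMSC against DNCB. The fat cell genes Plin1 and Cidec fell in DNCB skin, 2 of 4 adipocyte markers, and Cidec rose in scivMSC against DNCB. Of 4 hemoglobin genes, which mark red blood cells, 0 passed in DNCB against control by edgeR, with 2 at an unadjusted p under 0.05, 1 by DESeq2 and 1 by limma. The part of any of these cells in the interferon values was not tested.

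The members lie on 14 chromosomes, several in clusters. Chromosome 5 holds 8 (the Oas and Oasl genes, Gbp4 and Gbp6), chromosome 11 holds 7, chromosome 3 holds 5, of which 4 are Gbp genes, and chromosome 19 holds the 3 Ifit genes. On chromosome 17, within the major histocompatibility complex, Psmb9 (17:34181987-34187764, minus strand), Tap1 (17:34187553-34197225, plus strand) and Psmb8 (17:34197721-34201454, plus strand) lie next to each other in GRCm38, with Tap2 (17:34203527-34216321) beyond them. Psmb9 and Tap1 overlap by 212 bases on opposite strands, and the annotated antisense gene Gm20496 overlaps Psmb8. The strand of counting is not stated, so reads in these overlaps cannot be assigned to a strand. Irgm2 (11:58199618-58222782) overlaps Igtp (11:58199556-58207591) on the same strand, so that reads of these GTPases may be shared. Ifi27 (12:103434211-103440239) and Ifi27l2a (12:103442167-103443680) are neighbors, and an antisense gene overlaps Dhx58 (11:100694884-100704271). In the deposited table Tap1 is ENSMUSG00000037321, Psmb8 ENSMUSG00000024338, Psmb9 ENSMUSG00000096727, Irgm2 ENSMUSG00000069874, Ifi27 ENSMUSG00000064215, Ifi27l2a ENSMUSG00000079017 and Dhx58 ENSMUSG00000017830.

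**Figure D4:**
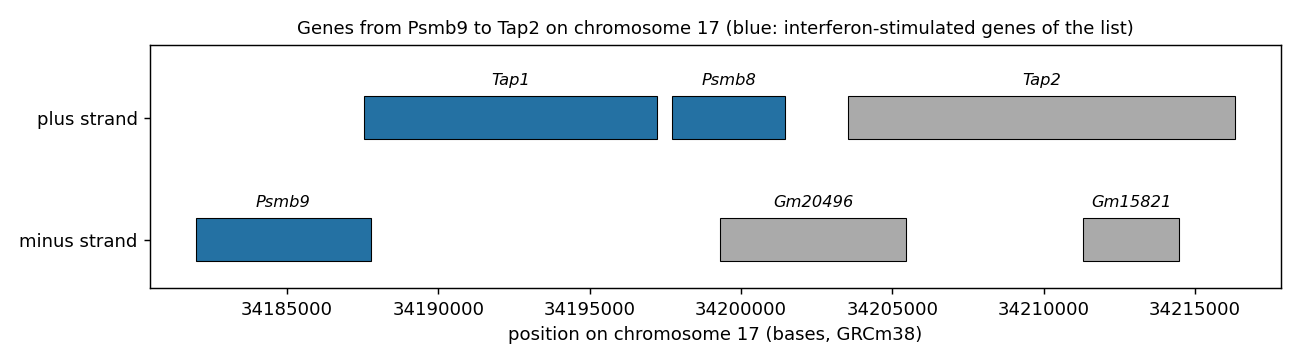
Genes from Psmb9 to Tap2 on mouse chromosome 17 drawn to scale, with position in bases of GRCm38 on the x axis and strand on the y axis, and the 3 members of the list in blue. Psmb9 and Tap1 lie head to head and overlap by 212 bases.

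Promoters of 300 bases (250 before to 50 after the start, RefSeq, GRCm38.p6) were matched for 33 of the 46 members, as 38 windows. The table holds none for Oas2, Mx1, Mx2, Gbp4, Gbp6, Iigp1, Dhx58, Zbp1, Usp18, Ifi27, Ifi27l2a, Parp14 and Rtp4. On both strands they were searched for GAAANNGAA, the core of the interferon-stimulated response element that the complex with Stat2 and Irf9 binds, and for TTCNNNGAA, the gamma-activated site. The core was in 22 of 38 member windows (57.9%), against 8.56% of all 32851 promoters, and the gamma-activated site in 11 (28.9%), against 8.30%. Both were in 7 windows (18.4%, against 1.07%). All 7 GTPases with a window held the core and 4 of them also the gamma-activated site. Of the 8 type I effectors with a window, 5 held the core and 2 the gamma-activated site. Of the 3 antigen processing genes, 0 held the core and Psmb8 held a gamma-activated site. A match of letters is a description and not a binding site.

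The windows of 5 members named above for their values, from 3 roles and Isg15, follow 5′ to 3′ with motif matches in capitals. Tap1 (chr17:34187306-34187605, plus strand) held neither motif, and its window overlaps that of Psmb9 on the other strand by 275 bases. Psmb8 (chr17:34197945-34198244, plus strand) had a gamma-activated site at -97 from its start. Irgm2 (chr11:58214727-58215026, plus strand) had the gamma-activated site at -75 and the core at -64. Isg15 (chr4:156200769-156201068, minus strand) had 3 core matches that run into each other, at -78, -72 and -66, and Ifit3 (chr19:34583279-34583578, plus strand) had 3 on the other strand, at -155, -121 and -102.
Tap1: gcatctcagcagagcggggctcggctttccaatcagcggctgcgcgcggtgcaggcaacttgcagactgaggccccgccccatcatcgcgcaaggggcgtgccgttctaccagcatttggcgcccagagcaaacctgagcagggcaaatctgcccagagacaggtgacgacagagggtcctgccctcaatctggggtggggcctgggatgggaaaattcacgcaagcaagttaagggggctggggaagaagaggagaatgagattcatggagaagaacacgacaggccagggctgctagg
Psmb8: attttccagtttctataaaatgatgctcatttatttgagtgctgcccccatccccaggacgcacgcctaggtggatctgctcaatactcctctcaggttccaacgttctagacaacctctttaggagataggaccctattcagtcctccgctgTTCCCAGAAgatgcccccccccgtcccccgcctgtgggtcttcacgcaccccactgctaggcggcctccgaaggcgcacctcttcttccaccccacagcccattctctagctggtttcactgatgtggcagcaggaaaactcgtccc
Irgm2: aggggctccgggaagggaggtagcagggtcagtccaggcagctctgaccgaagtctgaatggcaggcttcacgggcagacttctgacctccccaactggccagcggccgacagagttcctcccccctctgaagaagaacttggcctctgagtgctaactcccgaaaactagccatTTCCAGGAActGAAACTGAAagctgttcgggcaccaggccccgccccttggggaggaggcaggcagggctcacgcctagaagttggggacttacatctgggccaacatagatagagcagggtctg
Isg15: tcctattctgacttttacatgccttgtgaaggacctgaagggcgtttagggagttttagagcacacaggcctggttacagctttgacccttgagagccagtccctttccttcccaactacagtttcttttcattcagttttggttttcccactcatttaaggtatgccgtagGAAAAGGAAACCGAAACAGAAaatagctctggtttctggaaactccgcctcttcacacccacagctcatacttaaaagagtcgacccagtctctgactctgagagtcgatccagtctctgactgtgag
Ifit3: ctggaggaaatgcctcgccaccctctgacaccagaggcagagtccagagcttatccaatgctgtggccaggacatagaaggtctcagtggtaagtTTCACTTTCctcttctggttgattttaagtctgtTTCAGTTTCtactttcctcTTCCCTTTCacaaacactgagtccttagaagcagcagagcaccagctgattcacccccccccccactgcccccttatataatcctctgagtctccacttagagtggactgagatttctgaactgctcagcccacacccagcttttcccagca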

How the data were processed

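RNA sequencing of dorsal skin gave 12 libraries, 3 in each of 4 groups. The authors deposited FPKM, scaled by them for gene length and sequencing depth, and estimated counts as whole numbers that were not scaled between libraries, with 1 column per library for each unit. The labels name HISAT2 2.0, StringTie 1.3.0, Bowtie 0.12.2 and mm8 without their roles, while 36248 of 36400 genes overlap their position in GENCODE M21 (GRCm38). Estimated counts were fitted with edgeR 4.0.16 in R 4.3.3 (TMM factors from 0.887 to 1.06, 4 groups in 1 model, common biological coefficient of variation 0.420) over the 21890 genes whose mean reached 0.1 FPKM, and the quasi-likelihood F-test was adjusted by Benjamini-Hochberg over them. Standard errors came from the F statistic. Alternatives used DESeq2 1.42.0, limma 3.58.1, other scalings, filters and pseudocounts, the 6 libraries compared, a replicate block and each library left out. Motifs were searched with Python 3.11.15 and plots drawn with matplotlib 3.10.9.

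Members, role groups, pathway lists and cell type lists were chosen with earlier results of these data known. Values in every library were given for members passing in a comparison with the DNCB group and for Isg15, Ifit1, Ifit3, Oas2, Oasl2, Mx1, Irf1, Irf7, Irf9, Gbp2, Gbp5, Irgm1, Iigp1, Tap1, Psmb8, Psmb9, Ifih1 and Zbp1. From the pathway lists every receptor and ligand, Stat2, Socs1, Socs3, Cxcl9, Cxcl10 and otherwise the 3 genes with the smallest p per list and comparison were named. A further gene that the rule named is not reported here. Cell type lists covered T cells, NK cells, neutrophils, macrophages, plasmacytoid and other dendritic cells, endothelium, keratinocytes, fibroblasts, hair follicle, skeletal muscle, adipocytes and red blood cells.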

Additional observations from a re-analysis of the deposited data

How the results depend on the processing

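With 3 mice a group, members varied within a group by a median of 0.20 to 0.72 log2 units, and Oas1a, Oas1g and Ifng were too low for a test. Floors cover counting error only. A minimum mean of 1 FPKM leaves no value for members below it. The counts of passing members in 6 comparisons were recomputed under 144 alternatives, of which 119 were within 1.5 times the reported count and 25 were not. Of 966 list medians, 16 moved by more than the spread. Of 3590 single-gene values, 3338 kept direction and side of the threshold, 89 lost a call, 61 gained one and 102 changed sign. No value that changed sign passed the test before or after. The cause was not tested for any of these.

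The counts of passing members have in brackets the share of all genes tested in the same fit that were lower. In DNCB against control, 6 members passed (12.4%), and 11 passed by DESeq2 (16.1%), 11 in a fit of only the 6 libraries compared (13.4%) and 11 with both control 3 and scMSC 1 left out (11.6%), an alternative chosen after seeing the data. In that last fit 7 were lower and 4 were higher (Oas3, Oasl1, Isg15 and Rsad2), where 11.6% of all genes were higher, while those of the other 3 fits were all lower. Leaving out 1 library at a time gave 4 to 10 (8.71% to 13.7%), all lower but for Oas3 without control 3. In the comparisons that follow every call at an adjusted p under 0.05 was lower. For scMSC against DNCB the 1 member (5.77%) became 3 by DESeq2 (9.08%), 2 by limma with a pseudocount of 1 (7.21%), 2 in the fit of 6 libraries (6.14%), 13 with both libraries left out (6.20%), and 0 to 8 with 1 library left out (3.21% to 6.88%). In scivMSC against DNCB the 0 of edgeR (3.60%, with 7 at an unadjusted p under 0.05 and 0 by limma) became 2 by DESeq2 (7.63%), 1 in the fit of 6 libraries (3.12%), 3 with both left out (3.96%), and 0 to 1 with 1 library left out (1.03% to 4.17%). For scMSC against control the 10 (8.12%) became 20 by DESeq2 (12.5%), 5 in the fit of 6 libraries (4.67%), and 7 to 21 with 1 library left out (5.20% to 10.3%). In scivMSC against control the 9 (6.13%) became 5 when scaled by library size alone (4.56%), 16 by DESeq2 (11.2%), and 4 to 12 with 1 library left out (2.59% to 7.61%). With the replicate number as a block, the counts were 6 (11.1%), 1 (4.62%), 0 (2.53%), 10 (6.67%) and 6 (5.21%) for DNCB against control, scMSC and scivMSC against DNCB, and scMSC and scivMSC against control, and 0 for scivMSC against scMSC.

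Log2 fold changes that changed sign were these. Scaled by library size alone, DNCB against control put Mx1 at 0.13, Gbp7 at 0.00069 and Stat2 at 0.047. There, scMSC against DNCB put Ifi27 at -0.0032. With DESeq2 size factors, DNCB against control put Parp14 at -0.0062. By DESeq2, DNCB against control put Parp14 at -0.0062. By limma with a pseudocount of 0.1, DNCB against control put Ifit2 at 0.024, Oas2 at 0.14, Mx1 at 0.31 and Gbp7 at 0.047. Usp18 was at 0.043, Ifi44 at 0.33 and Stat2 at 0.14. There, scMSC against DNCB put Ifi27 at -0.030 and Stat2 at -0.011. By limma with a pseudocount of 1, DNCB against control put Ifit2 at 0.00047, Oas2 at 0.024, Mx1 at 0.13 and Gbp7 at 0.026. Usp18 was at 0.0036, Ifi44 at 0.071 and Stat2 at 0.091. There, scMSC against DNCB put Ifi27 at -0.029. Without a filter on low values, DNCB against control put Parp14 at -0.017. At a mean of at least 1 FPKM, DNCB against control put Parp14 at -0.014. Fitted on only the 6 libraries compared, DNCB against control put Parp14 at -0.015. There, scMSC against DNCB put Ifi27 at -0.0049. With the replicate block, DNCB against control put Ifit1 at -0.042 and Parp14 at -0.0052. With both control 3 and scMSC 1 left out, DNCB against control put Ifit2 at 0.27, Oas2 at 0.70, Oasl2 at 0.21 and Mx1 at 0.45. Mx2 was at 0.22, Gbp7 at 0.11, Zbp1 at 0.24 and Irf7 at 0.21. Usp18 was at 0.12, Ifi44 at 1.16, Cmpk2 at 0.10 and Stat2 at 0.26. There, scMSC against DNCB put Irf9 at -0.10, Ifi27 at -0.18 and Stat2 at -0.28.

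Leaving out 1 library at a time also changed signs. In DNCB against control, the range ran for Ifit1 from -0.36 to 0.60, Ifit2 from -0.54 to 0.23 and Oas2 from -1.04 to 0.66. Oas3 ranged from -0.44 to 2.38, Oasl1 from -0.11 to 2.00 and Oasl2 from -0.89 to 0.17. Mx1 ranged from -0.49 to 0.42, Mx2 from -0.93 to 0.18 and Gbp7 from -0.39 to 0.071. Ddx58 ranged from -0.081 to 0.22, Dhx58 from -0.042 to 0.75 and Zbp1 from -0.85 to 0.20. Irf7 ranged from -1.33 to 0.17, Usp18 from -0.61 to 0.083 and Ifi44 from -0.78 to 1.13. Parp14 ranged from -0.24 to 0.36, Cmpk2 from -0.61 to 0.063 and Stat2 from -0.39 to 0.22. In scMSC against DNCB, the range ran for Gbp4 from -0.63 to 0.14, Igtp from -0.77 to 0.30 and Psmb8 from -0.22 to 0.066. Irf9 ranged from -0.10 to 0.46, Isg15 from -0.57 to 0.10 and Ifi27 from -0.18 to 0.10. Ifi27l2a ranged from -0.88 to 0.044, Stat2 from -0.28 to 0.22. In scivMSC against DNCB, the range ran for Gbp2 from -0.52 to 0.0042, Igtp from -0.13 to 0.035 and Psmb9 from -0.083 to 0.20. Ifih1 ranged from -0.17 to 0.22, Ifi27l2a from -0.42 to 0.091 and Ifi35 from -0.18 to 0.015. Bst2 ranged from -0.61 to 0.085, Stat2 from -0.0065 to 0.16. The cause was not tested.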
